A study of Homo sapiens with 2 samples.

Results

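The genes described here encode the vacuolar H+-ATPase (V-ATPase), the cathepsins and the lysosome-associated membrane proteins (LAMPs). They were chosen by name, with earlier results of these data known. The choice took the ATP6V0, ATP6V1 and ATP6AP subunit genes, the cathepsin genes named CTS with a single letter, and LAMP1 to LAMP3. ATP6V1G2 was left out. This gave 39 of the 55797 genes in the RNA-seq tables, made up of 12 V1 subunits, 9 V0 subunits, 2 accessory proteins, 13 cathepsins and 3 LAMPs. RNA-seq was performed on 1 library of live and 1 library of processed Stage 6 cells, both derived from the human embryonic stem cell line H1, at a stage of pancreatic differentiation that contains insulin-expressing cells. Whether both came from 1 culture is not given in the sources used here. Live cells went unfixed and unsorted into RNeasy extraction. Processed cells went through MARIS, that is paraformaldehyde fixation, saponin permeabilization, antibody staining, flow sorting in which every cell was kept, and release of RNA by protease digestion. The comparison asks whether this handling altered the representation of transcripts. With 1 library of each kind from 1 line, no difference below has a replicate check, and none was tested.

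The V-ATPase is a rotary proton pump. Its cytosolic V1 part hydrolyses ATP and turns a shaft, and its membrane V0 part carries protons into the lumen of lysosomes, endosomes, the Golgi and secretory granules. The low pH that results activates the cathepsins, proteases that break down proteins in the lysosome, while the heavily glycosylated LAMPs line its membrane. In endocrine cells the same pump acidifies the granules in which prohormones are cleaved. Several subunits have a widely used isoform and another that is restricted to tissues such as kidney, bone or testis.

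The values are FPKM, in which fragments are divided by transcript length and by library depth, so that levels can be compared between genes. Each comes with a lower and an upper bound that describe 1 library and hold no replicate error. FPKM summed to 510713 in live and 499398 in processed cells. Steps in low values put 1 FPKM of a 1 kb transcript at about 99.8 and 93.1 fragments, respectively. The 7 Stage 6 endocrine markers examined were all detected, from 13.1 FPKM for NEUROD1 to 1794 FPKM for CHGA in live cells. The ratio of processed to live cells is given as log2((processed FPKM + 1) / (live FPKM + 1)), which understates changes of weakly expressed genes, and its range is taken from the bounds.

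Of the 39 genes, 32 reached an FPKM of 1 in either library or both. Each V1 and V0 subunit had at least 1 gene above 10 FPKM in both libraries. ATP6V1C2 passed only through the processed library and CTSE only through the live one. The remaining 7 (ATP6V0A4, ATP6V0D2, ATP6V1G3, CTSG, CTSS, CTSW and LAMP3) lay between 0 and 0.947 FPKM. The most abundant transcripts were those of ATP6V0C, which forms the proton-carrying ring of V0, at 113 FPKM in the live and 121 FPKM in the processed library, and ATP6V1G1, a stalk subunit, at 92.2 and 94.5 FPKM. The cathepsins with the highest levels were CTSB, at 70.4 and 66.5 FPKM, and CTSD, at 70.1 and 82.3 FPKM. Together the 39 genes accounted for 1032 FPKM in the live and 1037 FPKM in the processed library. The bounds were narrow, with a median half-width of 3.80% of the value in live and 5.13% in processed cells over the 32 genes.

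**Figure D1:**
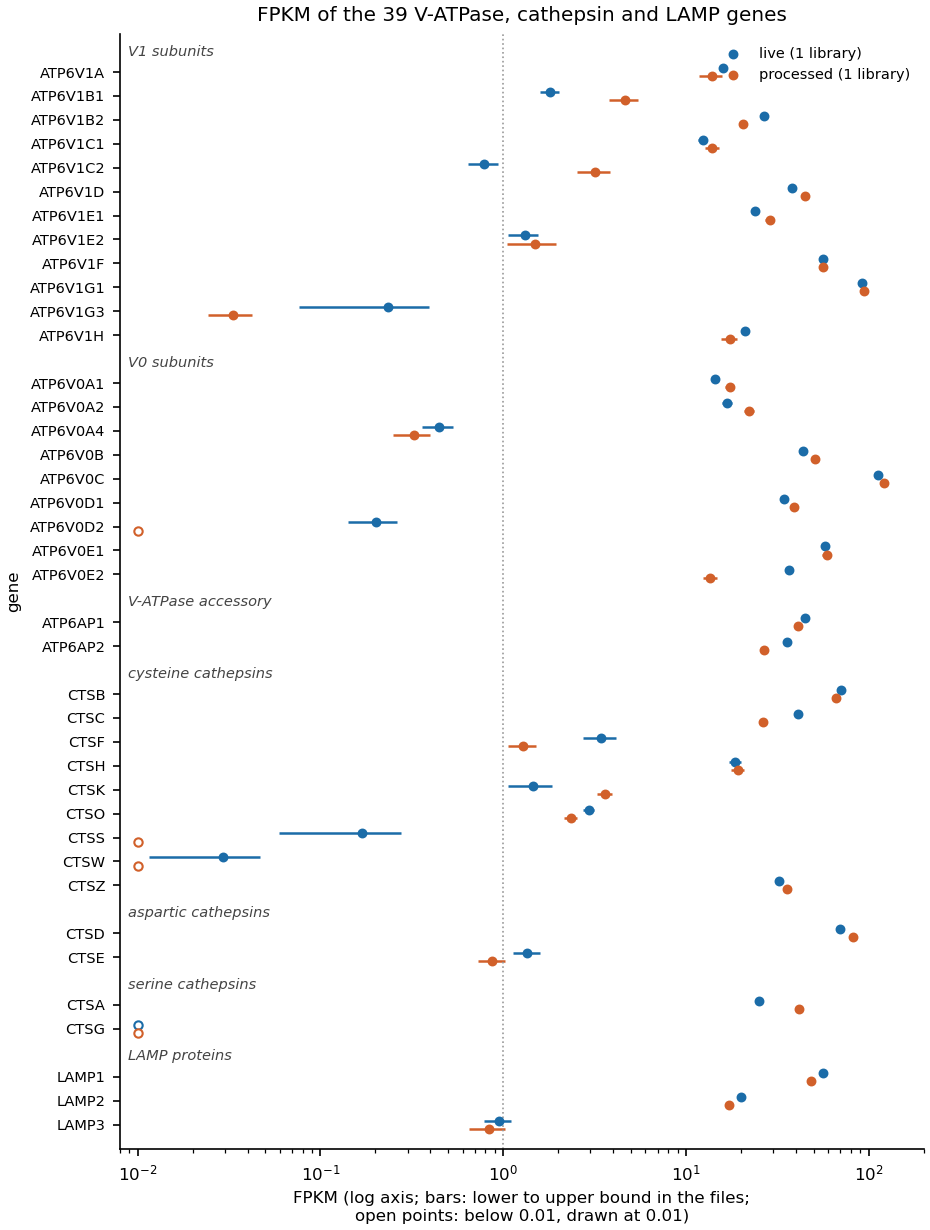
FPKM on a log axis for each of the 39 genes in the live (blue) and the processed (orange) library, with bars from the lower to the upper bound in the files and open points for values below 0.01. The libraries lie close together for most genes above 10 FPKM, while ATP6V0E2 is lower at 13.6 FPKM in processed against 36.8 FPKM in live cells, and of the 7 genes below 1 FPKM in both libraries, CTSG is at 0 in both and the other 6 are lower in processed cells.

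Between live and processed cells, the 32 genes had a median log2 ratio of 0.04, with the middle of the distribution from -0.22 to 0.23, against a median of -0.09 and a middle range from -0.39 to 0.25 over all 17326 genes that passed the same filter. Past 1.5-fold, 4 genes (12.5%) were higher in processed cells (ATP6V1B1, ATP6V1C2, CTSA and CTSK) and 3 (9.38%) were lower (ATP6V0E2, CTSC and CTSF). The corresponding shares over all genes were 13.1% and 15.6%. Past 2-fold, 1 gene was higher (ATP6V1C2) and 1 was lower (ATP6V0E2), with shares over all genes of 6.57% and 6.19%. The bounds did not overlap between the libraries for 24 of the 32 genes, against 71.8% of all genes. Of these, 13 (40.6%) were higher and 11 (34.4%) lower in processed cells, while over all genes 28.1% were separate and higher and 43.7% separate and lower. The median of processed FPKM over live FPKM was 0.932, and scaling it to equality shifted the log2 ratios by up to 0.10 and turned the 13 and 11 into 15 higher and 8 lower, against 6101 and 6180 over all genes in place of 4867 and 7570. Past 1.5-fold, in either direction, the share over all genes was 28.7%, and past 2-fold it was 12.8%. Among the 25 genes of at least 10 FPKM in at least 1 library, 1 was past 1.5-fold higher (CTSA) and 2 were lower (CTSC and ATP6V0E2), against 7.35% and 9.24% (16.6% in either direction) of 8515 genes at that level. None of the 25 was past 2-fold higher and 1 was lower, against 2.99% and 2.02% (5.01% in either direction). Their bounds were separate and higher for 10 and separate and lower for 8, against 26.8% and 47.2% (74% in either direction). Over all 39 genes without the filter, the median log2 ratio was -0.01.

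**Figure D2:**
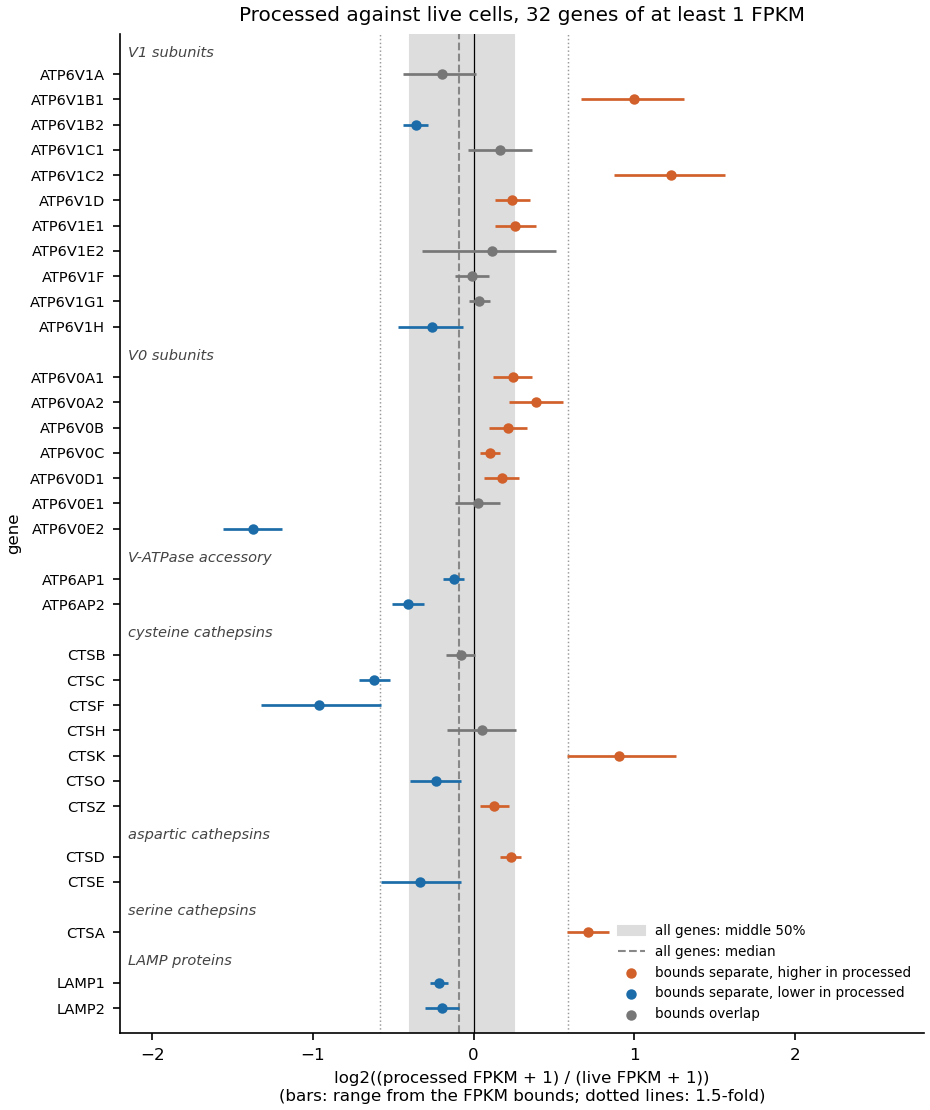
Log2 ratio of processed to live FPKM, with a pseudocount of 1, for the 32 genes of at least 1 FPKM, with bars for the range given by the FPKM bounds, and the middle 50% (grey band) and the median (dashed line) of all 17326 genes. Most genes lie inside the band, and 7 lie beyond the dotted 1.5-fold lines, from ATP6V0E2 at -1.37 to ATP6V1C2 at 1.23.

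The spread of log2 ratios narrows as expression increases, and each gene was therefore also set beside all genes of like mean FPKM. Of the 32 genes, 15 lay within the middle 50% of their level, and 3 lay outside the 5th to 95th percentile, a range that leaves out 10% of all genes by construction. These were ATP6V0E2, CTSA and CTSC. Among the 2296 genes with a mean from 17.8 to 31.6 FPKM, the 5th percentile was -0.66, compared with -1.37 for ATP6V0E2. Among the 1400 genes from 31.6 to 56.2 FPKM, the percentiles were -0.55 and 0.61, compared with -0.62 for CTSC and 0.71 for CTSA. ATP6V1B1, ATP6V1C2, CTSF and CTSK, by contrast, had means below 10 FPKM and lay inside the percentiles of their levels.

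**Figure D3:**
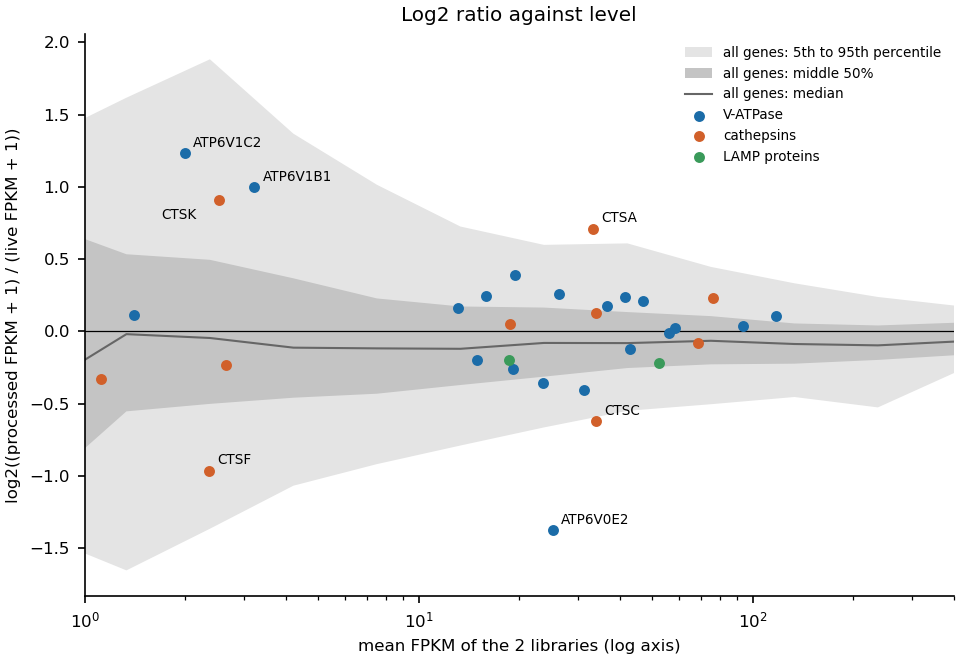
Log2 ratio of processed to live FPKM (pseudocount of 1) against the mean FPKM of both libraries on a log axis, for V-ATPase genes (blue), cathepsins (orange) and LAMPs (green), with the 5th to 95th percentile, the middle 50% and the median of all genes at each level in grey. ATP6V0E2 and CTSC lie below the light grey area and CTSA above it, while ATP6V1C2, ATP6V1B1, CTSK and CTSF lie inside it at low levels.

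Lysosomal genes are known to share a short promoter element, the CLEAR element, which is built around the E-box CACGTG and is bound by the transcription factor TFEB and its relatives. Promoter sequences in RefSeq (GRCh38.p14, windows of equal length that lie mostly upstream of a start) were matched by symbol for 25 of the 39 genes. CACGTG, which reads the same on both strands, was present for 8 of these 25 (32%), compared with 8.77% of 27305 genes with a promoter sequence and 10.9% of 15842 protein-coding genes. The longer TCACGTG, searched on both strands and always containing CACGTG, was found for the same 8 genes and for 4.49% of all genes. Its palindromic extension TCACGTGA was found for 4 (ATP6V0D1, ATP6V1G1, CTSA and LAMP1) against 1.18%. At least 2 copies of CACGTG were held by 4 of the 25 (ATP6V0B, CTSA, CTSF and LAMP1), compared with 0.791% of all genes. Over protein-coding genes alone, the shares were 5.83% for TCACGTG, 1.65% for TCACGTGA and 1.1% for at least 2 copies of CACGTG. The sequences that end at the base before the start are given 5′ to 3′ for the 8 genes, to show the copies and their spacing, with CACGTG in capitals.
ATP6V1G1, chr9:114587689-114587768, plus strand: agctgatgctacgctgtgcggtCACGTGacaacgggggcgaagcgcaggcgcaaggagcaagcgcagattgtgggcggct
ATP6V0D1, chr16:67481158-67481237, minus strand: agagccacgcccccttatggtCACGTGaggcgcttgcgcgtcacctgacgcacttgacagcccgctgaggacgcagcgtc
ATP6V0B, chr1:43974880-43974959, plus strand: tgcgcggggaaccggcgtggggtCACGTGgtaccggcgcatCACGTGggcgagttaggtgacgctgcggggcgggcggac
ATP6V0E2, chr7:149872884-149872963, plus strand: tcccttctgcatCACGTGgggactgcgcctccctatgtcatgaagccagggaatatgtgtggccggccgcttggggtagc
CTSA, chr20:45891255-45891334, plus strand: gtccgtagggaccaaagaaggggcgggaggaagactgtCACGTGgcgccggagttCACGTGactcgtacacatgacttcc
CTSD, chr11:1763928-1764007, minus strand: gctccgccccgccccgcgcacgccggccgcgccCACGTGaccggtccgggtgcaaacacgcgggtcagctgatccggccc
CTSF, chr11:66568607-66568736, minus strand: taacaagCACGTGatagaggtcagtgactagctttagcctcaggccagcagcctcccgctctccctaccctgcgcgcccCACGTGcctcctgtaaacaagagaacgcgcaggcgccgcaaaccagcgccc
LAMP1, chr13:113297039-113297238, plus strand: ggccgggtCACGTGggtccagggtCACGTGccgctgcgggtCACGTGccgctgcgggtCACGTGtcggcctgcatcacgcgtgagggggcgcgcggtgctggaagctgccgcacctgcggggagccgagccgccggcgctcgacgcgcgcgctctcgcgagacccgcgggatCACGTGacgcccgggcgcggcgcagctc

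The LAMP1 sequence holds 4 copies in a row, starting 192, 176, 159 and 142 bases before the start, and another 28 bases before it, while a further copy, which begins 1 base before the start, runs past the end of the printed stretch. In ATP6V1G1, ATP6V0D1 and ATP6V0B a copy lay at nearly the same place, 58, 59 and 57 bases before the start. Among the 22 matched genes that passed the filter, the 8 with CACGTG had a median log2 ratio of 0.11 (from -1.37 to 0.71) and the 14 without it 0.12 (from -0.62 to 1.23). Genes with the element thus included the lowest ratio, that of ATP6V0E2, as well as the high ratio of CTSA. A match describes these letters only and does not show that a factor was bound.

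In the V1 part, the subunits of the ATP-hydrolysing head were present at moderate levels. ATP6V1A, which binds and hydrolyses ATP, had 16 FPKM in the live and 13.8 FPKM in the processed library, and its bounds overlapped. The processed value was less precise, with a half-width of 14.4% compared with 2.45% in live cells. ATP6V1B2, the widely used B subunit, was lower in processed cells (log2 ratio -0.36), at 26.6 FPKM (bounds 25.9 to 27.3) in the live and 20.5 FPKM (19.9 to 21.1) in the processed library. The shaft subunits ATP6V1D and ATP6V1F had 37.8 and 56.5 FPKM in live and 44.9 and 56 FPKM in processed cells, so that the former was higher with separate bounds (log2 ratio 0.24) and the latter nearly equal (-0.01). Among the stalk subunits, ATP6V1E1 was also higher, from 23.8 to 28.7 FPKM. ATP6V1G1 (log2 ratio 0.04) and ATP6V1C1 (12.3 and 13.9 FPKM) had overlapping bounds, which became separate and higher after scaling by the median ratio. ATP6V1H, which restrains ATP hydrolysis in V1 released from the membrane, was lower with separate bounds, at 21.0 and 17.3 FPKM, but the bounds overlapped after that scaling. Over the 11 V1 genes that passed the filter, the median log2 ratio was 0.11, and the summed FPKM of all 12 was 290.3 in the live and 299.1 in the processed library.

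The tissue-restricted V1 isoforms were weakly expressed. ATP6V1B1 (chromosome 2, 71163012 to 71192536 on GRCh37/hg19, the build of every gene locus given by start and end), the B subunit of kidney intercalated cells and the inner ear, had 1.81 FPKM (1.6 to 2.02) in the live and 4.62 FPKM (3.80 to 5.44) in the processed library, a log2 ratio with a range from 0.67 to 1.31 that itself lay just under the 2-fold line. ATP6V1C2 (chromosome 2, 10861775 to 10925236), a C subunit of epithelia such as lung and kidney, had 0.789 FPKM (0.639 to 0.939) and 3.20 FPKM (2.55 to 3.85). Both were higher in the processed library with separate bounds, 2.55-fold and 4.05-fold without a pseudocount. The locus of ATP6V1C2 overlaps that of PDIA6 on the opposite strand, which had 120 FPKM in the live and 105 FPKM in the processed library, and 1033 bases of exon are common to both in the later annotation used here. Whether the libraries kept strand is not given in the sources used here, and fragments of the pair may not be separable. ATP6V1E2, the testis E subunit, had 1.31 and 1.5 FPKM with overlapping bounds. ATP6V1G3, a kidney G subunit, had 0.236 and 0.033 FPKM. Of 3 markers of kidney intercalated cells, FOXI1 and SLC4A1 were listed at 0 in both libraries, and SLC26A4 had 0.187 and 0.181 FPKM.

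In the V0 part, 5 of the 7 genes that passed the filter were higher in processed cells with separate bounds, against 28.1% of all genes, and the same 5 after scaling by the median ratio. The summed FPKM of all 9 was 317.4 in the live and 323.3 in the processed library. The a subunit couples the rotor to the proton path, and its isoforms send the pump to different membranes. ATP6V0A1 had 14.5 FPKM in the live and 17.3 FPKM in the processed library (log2 ratio 0.24). ATP6V0A2, an isoform of Golgi and endosomes, had 16.7 and 22.2 FPKM (0.39), the largest positive ratio within V0. TCIRG1, the a3 isoform known from osteoclasts, does not share the ATP6V name and was not among the 39 genes. It had 8.76 and 9.18 FPKM with overlapping bounds. The ring subunits ATP6V0C and ATP6V0B had log2 ratios of 0.10 and 0.21, with 43.4 FPKM in the live and 50.5 FPKM in the processed library for ATP6V0B. ATP6V0D1, which joins the ring to the V1 shaft, had 34.4 and 38.9 FPKM (0.17).

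ATP6V0E2 (chromosome 7, 149570057 to 149577787) had the log2 ratio farthest from 0 on the scale with a pseudocount. Among the 32 genes that passed the filter, the fold without a pseudocount was larger for ATP6V1C2 alone. It is an isoform of the small membrane subunit e. Its level was 36.8 FPKM (34.9 to 38.7) in the live and 13.6 FPKM (12.5 to 14.7) in the processed library, 2.71-fold lower, with a log2 ratio of -1.37 and a range from -1.56 to -1.19. ATP6V0E1, the other e isoform, had 57.9 FPKM (55.2 to 60.6) and 58.9 FPKM (55.8 to 62.1), and its bounds overlapped. The antisense gene ATP6V0E2-AS1 overlaps ATP6V0E2 with 864 bases of common exon in the later annotation, and had 0.934 and 0.870 FPKM. The summed FPKM of the e subunit was thereby 94.7 in the live and 72.5 in the processed library, and that of subunit B was 28.4 and 25.1, in contrast to subunits a, d, C and E, whose sums were higher in processed cells.

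As a share of the summed FPKM of its isoforms, ATP6V0E2 made up 38.9% of subunit e in live cells (36.5 to 41.2 from the bounds) and 18.7% in processed cells (16.7 to 20.9). ATP6V1B1 made up 6.38% of subunit B in live and 18.4% in processed cells, and ATP6V1C2 6.02% and 18.7% of subunit C. The main isoforms of B and C still held 81.6% and 81.3% in processed cells. Shares were nearly the same in both libraries for subunit E, with ATP6V1E2 at 5.22% and 4.96%. For subunit a, ATP6V0A2 held 41.4% and 45.3%, ATP6V0A1 35.8% and 35.3%, TCIRG1 21.7% and 18.7%, and ATP6V0A4, the kidney isoform, 1.10% and 0.659%. Scaling between the libraries leaves these shares as they are.

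**Figure D4:**
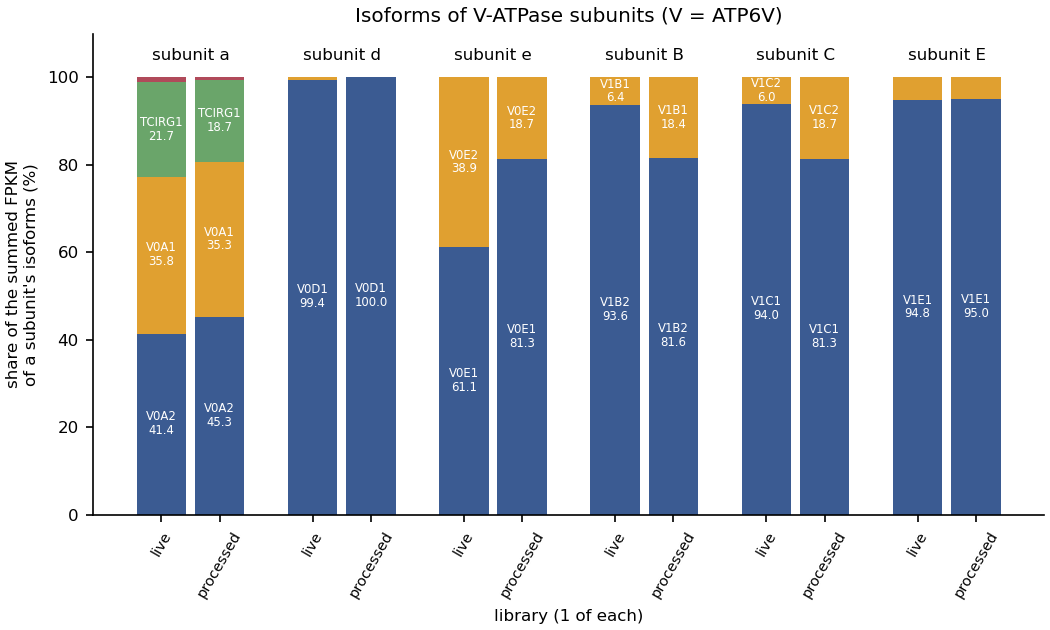
Share of each isoform, in percent, of the summed FPKM of its V-ATPase subunit in the live and the processed library, with gene names shortened by leaving out ATP6. ATP6V0E2 takes 38.9% of subunit e in live and 18.7% in processed cells, ATP6V1B1 and ATP6V1C2 take larger shares in processed cells, and subunits a, d and E look alike in both libraries.

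Both accessory proteins of the pump were lower in processed cells with separate bounds, as were 43.7% of all genes. ATP6AP1 (Ac45), which assists assembly and trafficking of the pump, had 44.8 FPKM in the live and 41.1 FPKM in the processed library (log2 ratio -0.12, or -0.02 with overlapping bounds after scaling by the median ratio). ATP6AP2, the prorenin receptor, had 35.9 and 26.8 FPKM, 1.34-fold lower (-0.41).

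Among the cathepsins, 10 of the 13 genes passed the filter, and 4 were higher and 4 lower in processed cells with separate bounds, against 28.1% and 43.7% of all genes. CTSA (chromosome 20, 44519591 to 44527459) is a serine carboxypeptidase that also protects lysosomal neuraminidase and beta-galactosidase from degradation. It had 25 FPKM (23.9 to 26.2) in the live and 41.7 FPKM (39.6 to 43.7) in the processed library, 1.66-fold higher, with a log2 ratio of 0.71. Its locus overlaps NEURL2 (2.03 and 2.67 FPKM) and PLTP (32.6 and 29.6 FPKM), both on the other strand, with 959 and 329 bases of common exon in the later annotation. The genes of its 2 enzyme partners, chosen for mention after their values had been seen, differed little, with 21.4 and 22.3 FPKM for NEU1 and 34.2 and 34.5 FPKM for GLB1.

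CTSC (chromosome 11, 88026778 to 88070955), a dipeptidyl peptidase that activates granule proteases, was the cathepsin above 10 FPKM with the lowest ratio. It had 41.2 FPKM (40.2 to 42.3) in the live and 26.5 FPKM (25.4 to 27.7) in the processed library, 1.55-fold lower, with a log2 ratio of -0.62. After scaling by the median ratio it was -0.52, no longer past 1.5-fold. No other gene of at least 1 FPKM overlaps it. The remaining abundant cathepsins were closer to equality. CTSB, a cysteine protease with both endopeptidase and carboxypeptidase activity, had overlapping bounds and a log2 ratio of -0.08, which turned to 0.02 after scaling by the median ratio. CTSH, an aminopeptidase, had 18.5 and 19.2 FPKM, also with overlapping bounds. CTSZ, a carboxypeptidase, had 32.4 and 35.5 FPKM (0.13), and CTSD, the main aspartic protease of lysosomes, had a log2 ratio of 0.23, both with separate bounds. CTSL1 and CTSL2, named with a number in the files and therefore outside the 39 genes, had 15.4 and 11.9 FPKM (separate bounds, lower) and 17.9 and 16.8 FPKM (overlapping).

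Of the 4 weakly expressed cathepsins that passed the filter, CTSK and CTSF were past 1.5-fold, whereas CTSE and CTSO were not on the scale with a pseudocount. CTSK (chromosome 1, 150768684 to 150780799), the collagen-degrading protease of osteoclasts, had 1.46 FPKM (1.06 to 1.85) in the live and 3.60 FPKM (3.27 to 3.94) in the processed library, 2.48-fold higher. CTSF (chromosome 11, 66330934 to 66336312), a cysteine cathepsin, had 3.45 FPKM (2.73 to 4.16) and 1.28 FPKM (1.06 to 1.5), 2.69-fold lower. CTSE, an aspartic protease of stomach and immune cells, had 1.36 and 0.874 FPKM, and CTSO 2.94 and 2.35 FPKM, both lower with separate bounds.

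LAMP1 and LAMP2 were lower in processed cells to a similar extent. LAMP1 had 56.3 FPKM (55.2 to 57.4) in the live and 48.3 FPKM (47.4 to 49.3) in the processed library, 1.17-fold lower, and LAMP2 had 19.9 FPKM (19.2 to 20.7) and 17.3 FPKM (16.6 to 18), 1.15-fold lower. Both ratios, -0.22 and -0.20, lay within the middle range of all genes. After scaling by the median ratio they were -0.12 and -0.10, and the bounds of LAMP2 then overlapped. LAMP3, which is known from mature dendritic cells, had 0.947 and 0.840 FPKM with overlapping bounds.

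The 7 genes below 1 FPKM include those that mark specialised cells. CTSS, a protease of antigen-presenting cells, had 0.169 FPKM in live cells and was listed at 0 in processed cells. CTSW, of cytotoxic lymphocytes, had 0.029 FPKM and was likewise listed at 0. ATP6V0D2, of osteoclasts and macrophages, had 0.202 FPKM in live cells and an upper bound of 1.30e-04 FPKM in processed cells. CTSG, of neutrophil granules, was listed at 0 in both. ATP6V0A4 had 0.445 and 0.323 FPKM. Except for CTSG, each of the 7 thus had a lower value in processed cells, although the bounds of ATP6V0A4 and LAMP3 overlapped. For CTSS and CTSW, both processed bounds were also 0. Live half-widths were 64.8% for CTSS, 60.3% for CTSW and 67.6% for ATP6V1G3. About 3 fragments would give 0.025 FPKM for CTSW in live cells. For ATP6V1G3 in processed cells they would give 0.063 FPKM, above its value of 0.033 FPKM. These differences therefore rest on very few fragments. Lower values prevailed at this level in general, with 70.8% of the 13277 genes that lay under 1 FPKM in both libraries and above 0 in at least 1 of them.

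Markers of the cells in question were partly lower as well. Of 10 macrophage markers, 8 had a lower value in processed cells, 6 of them listed at 0 there (CD14, AIF1, PTPRC, TYROBP, FCER1G and CD163). CSF1R (0.498 and 0.923 FPKM) and LYZ (3.22 and 4.58 FPKM) had a higher value. The bounds overlapped for CSF1R, with processed bounds from 0 to 1.85 FPKM, and for CD68, a marker with a lower value. The summed level of the 10 markers was 9.59 FPKM in the live and 6.21 FPKM in the processed library. Of 4 markers of cytotoxic lymphocytes, NKG7 and PRF1 were listed at 0 in both libraries. CD8A and GZMA had 0.256 and 0.063 FPKM in live cells and were listed at 0 in processed cells. Of 4 neutrophil markers only AZU1 was above 0.01 FPKM, with 1.05 and 1.18 FPKM. The part of such cells in the values of CTSS, CTSW and ATP6V0D2 was not tested. In bulk RNA, fewer cells of a type and less RNA per cell cannot be told apart.

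Other lysosomal genes were taken from 4 lists. Of the 81 genes listed, 80 were matched and 78 passed the filter, with a median log2 ratio of -0.15. Of the 78, 17 (21.8%) were separate and higher in processed cells and 38 (48.7%) separate and lower, against 28.1% and 43.7% over all genes. Past 1.5-fold, 5 (6.41%) were higher and 7 (8.97%) lower, against 13.1% and 15.6% of all genes. The 78 genes had a higher median level in live cells, 15.0 FPKM against 8.46 FPKM over all genes. Among all genes of at least 10 FPKM in at least 1 library, the shares past 1.5-fold were 7.35% and 9.24%, close to those of the lists. The luminal hydrolases and their activators (38 genes passing) had a median of -0.13. The highest was PSAP, the precursor of the saposins that help degrade sphingolipids, with 212 FPKM in the live and 188 FPKM in the processed library. Within this list the largest positive ratio above 10 FPKM was that of DPP7, a dipeptidyl peptidase (32.3 and 60.8 FPKM), and the largest negative one that of IDS, iduronate 2-sulfatase (15.3 and 9.998 FPKM). The membrane and lipid transfer proteins (23 genes) had a median of -0.14, with the tetraspanin CD63 at 226 and 231 FPKM. The extremes in this list were TPCN2, an endolysosomal cation channel (3.64 and 10.9 FPKM), and ABCA2, a lipid transporter (12.8 and 8.85 FPKM).

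Of the 6 genes that deliver hydrolases to lysosomes, 4 were separate and lower in processed cells, against 43.7% of all genes. The bounds overlapped for M6PR and GNPTG. GNPTG, named after its values had been seen, was nearly equal, with 20.3 FPKM in the live and 20.2 FPKM in the processed library. Over the 6 genes the median log2 ratio was -0.29, compared with -0.09 over all genes. M6PR, the cation-dependent mannose 6-phosphate receptor, had 54.5 FPKM in the live and 43.2 FPKM in the processed library, but its live bounds ran from 0 to 242 FPKM and its value there is uncertain. SORT1, a sorting receptor, had 21.6 and 16.7 FPKM. Among 11 genes for V-ATPase assembly and regulation, 6 were separate and lower and 1 was separate and higher, against 43.7% and 28.1% of all genes, with a median of -0.18. DMXL1, a part of the complex that rejoins V1 and V0, had 5.87 FPKM in the live and 20.9 FPKM in the processed library, a log2 ratio of 1.67. The largest fall above 10 FPKM was that of CCDC115, an assembly factor, with 15.2 and 8.79 FPKM (-0.73). The lowest ratio of the list, -1.67, belonged to ATP6AP1L, with 3.69 and 0.475 FPKM and separate bounds. ATP6AP1L was named after its values had been seen. RNASEK, the most abundant of the list, had 86.0 and 90.5 FPKM with overlapping bounds.

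**Figure D5:**
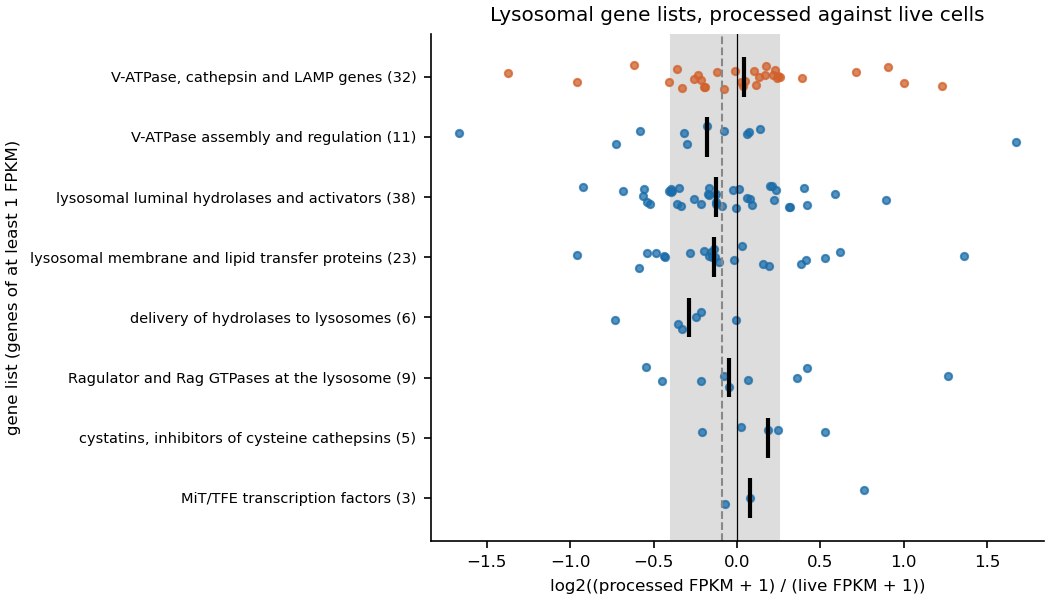
Log2 ratio of processed to live FPKM (pseudocount of 1) for the V-ATPase, cathepsin and LAMP genes (orange) and for 7 lists of related genes (blue), 1 point per gene of at least 1 FPKM, with black bars at the list medians and the middle 50% and median of all genes in grey. The medians run from -0.29 for the delivery genes to 0.18 for the cystatins, and all lie inside the grey band.

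Reads shared with near-identical copies could affect some of these values. Of 13 pseudogenes named after one of the 39 genes, 11 were listed at 0 in both libraries. ATP6V1E1P1 had 2.35 FPKM in the live and 3.40 FPKM in the processed library, beside 23.8 and 28.7 FPKM for ATP6V1E1, and ATP6V0E1P2 had 1.07 FPKM in live cells with a lower bound of 0. The loci of 7 of the 39 genes overlap another gene of at least 1 FPKM. Without the 6 of these that passed the filter, 2 genes remained past 1.5-fold higher (ATP6V1B1 and CTSK) and the same 3 lower.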

How the data were processed

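RNA-seq of 1 live and 1 processed library of H1-derived Stage 6 cells was analysed. Paired reads of 80 nt were aligned by the authors to GRCh37/hg19 with STAR 2.2.0c guided by GENCODE annotations, and the deposited FPKM values, with lower and upper bounds, come from Cufflinks 2.0.2 according to the submitters' processing notes, whereas the study's methods name Cuffdiff. The level of the bounds and the strandedness of the libraries are not given in the sources used here.

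Rows were joined by Ensembl identifier, since 5489 of 55797 genes stood in the same row of both tables. A pseudocount of 1 FPKM and a filter of at least 1 FPKM in at least 1 library were used. Differences were called past 1.5-fold, past 2-fold or where the bounds did not overlap, with no test, and the pseudocount, filter, scaling and overlapping genes were varied. Genes named were all that passed the filter, family members with other names, overlapping or like-named genes, and, per list, the highest in live cells and the largest rise and fall among those of at least 10 FPKM. The genes, lists and thresholds were chosen with earlier results of these data known. The FPKM that 1 fragment is worth was read from steps in low FPKM of genes with a single annotated transcript, allowing 170 nt for the fragment, with a bin width of 5.0e-04. Exons, transcript lengths and strands came from a later GENCODE release on GRCh37, which held 94.5% of the identifiers. The calculation was tested on simulated data. Python 3.11.15, numpy 2.4.6, pandas 2.3.3, scipy 1.17.1 and matplotlib 3.10.9 were used.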

Additional observations from a re-analysis of the deposited data

How the results depend on the processing

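With 1 library per condition, the bounds of each library are the only error available, and no call could be checked by leaving out a replicate. No paired analysis was possible because each group has 1 library. The median log2 ratio of 0.04 ranged from -0.03 (without genes overlapping an expressed gene) to 0.14 (median ratio scaling), with -0.01 without a filter. The number past 1.5-fold lower, 3, ranged from 2 (without CTSC after median ratio scaling, without CTSF at 10 FPKM) to 4 (with CTSE, without a pseudocount). The numbers with separate bounds stayed within 1.5 times of 13 and 11, but which direction held more genes changed. Without genes overlapping an expressed gene, 9 were higher and 11 lower. Without a filter, 13 were higher and 15 lower, against 6732 and 12906 over all genes. Counts past 2-fold were small and moved. With a pseudocount of 0.1 or none, 3 genes were past 2-fold higher and 2 lower, in place of 1 and 1. The count higher was 0 when an FPKM of at least 1 was asked in both samples, 0 at 10 FPKM in at least 1 of them, 0 without genes overlapping an expressed gene, and 2 after median ratio scaling or rescaling to the same FPKM sum. The count past 1.5-fold higher was 1 at 10 FPKM and 2 without overlapping genes, in place of 4. No gene with separate bounds changed direction under another scaling or pseudocount.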

Other observations

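Genes that work beside the lysosome but neither build nor fill it are described here as values. The cystatins inhibit cysteine cathepsins, and 5 of 8 passed the filter, with a median log2 ratio of 0.18. CST3, cystatin C, had 165 FPKM in the live and 168 FPKM in the processed library with overlapping bounds, and CSTB, which acts in the cytosol, had 23.2 and 26.5 FPKM with separate bounds. None of the 5 was past 1.5-fold.

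The Ragulator and Rag GTPases dock the growth-regulating kinase complex mTORC1 to the lysosome in contact with the V-ATPase. All 9 genes passed the filter, with a median of -0.05, and 3 were separate and higher and 3 separate and lower in processed cells, against 28.1% and 43.7% of all genes. LAMTOR4 (C7orf59 in the files), the highest in live cells, had 51.9 FPKM in the live and 37.8 FPKM in the processed library, and RRAGB had 8.36 and 21.5 FPKM, a log2 ratio of 1.26. Of the transcription factors that bind the CLEAR element, TFE3 had 12.4 and 11.7 FPKM and MITF 4.4 and 4.71 FPKM, both with overlapping bounds. TFEB had 1.35 FPKM (0.784 to 1.92) in the live and 2.99 FPKM (2.37 to 3.61) in the processed library, and TFEC had 0.199 FPKM and was listed at 0 in processed cells. MITF, TFEB and TFEC were named after their values had been seen.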
